A study of Homo sapiens with 4 samples.

Results

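The protein 4.1 and ERM membrane linkers described here are 10 genes, *EPB41*, *EPB41L1*, *EPB41L2*, *EPB41L3*, *EPB41L4A*, *EPB41L5*, *EZR*, *RDX*, *MSN* and *NF2*, out of 28278 gene symbols in the count table. They were chosen by gene family and from the values of *EPB41L3*, which was listed at 0 in both libraries labelled sgUSP22, so their levels, fitted differences and calls are given as a description, with no p-value. The table held 4 bulk RNA libraries of cells labelled HepG2, a human hepatocellular carcinoma line. In 2 libraries the cells carried Cas9 with a control sgRNA, and in the other 2 they carried Cas9 with an sgRNA against *USP22*, a ubiquitin-specific protease of the SAGA complex. Cells of both groups had been exposed to Sorafenib, a multikinase inhibitor, for 24 h. The knockout population came from lentiviral delivery and puromycin selection with a single guide, and it was not described as a single clone. No source says that the 2 libraries of a group came from separate cultures, so every p-value below measures only the spread between these libraries, which may be technical.

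The libraries held 62030307 to 64728272 gene counts. For *USP22* itself, the targeted gene, 16450 and 16537 counts were found under the control sgRNA, against 20279 and 20368 in the libraries labelled sgUSP22. Its transcript level was therefore not lower under the guide (log2 difference 0.22, SE 0.034, edgeR adjusted p = 0.000394), and the knockout cannot be checked from transcript counts. The authors report Western blots as their check of knockout efficiency, and protein was not measured in these libraries. Of 24 hepatocyte markers, 12 were at 0 in all 4 libraries, including the defining secreted proteins *ALB*, *APOA1*, *APOB* and *TTR*. The summed hepatocyte level was 984.4 to 1026 CPM (the read count scaled to the normalised size of its library) in control and 1309 to 1340 in the libraries labelled sgUSP22, nearly all of it from *CPS1*, the first enzyme of the urea cycle. The 10 epithelial markers summed to 1934 and 1973 CPM in control and 1518 and 1452 CPM under the guide. *CDH1*, *KRT19* and *GRHL2* were at 0 in all 4 libraries. The 12 mesenchymal markers summed to 2176 and 2172 CPM in control and 2322 and 2294 CPM under the guide, with none at 0 in all 4 libraries. Genes of both lists moved in both directions. Among the epithelial genes *KRT8*, *KRT18* and *ELF3* were lower, and *CLDN4* and *CLDN7* were higher (log2 difference 1.22 and 0.82). The mesenchymal *FN1* rose from a mean of 279.5 to 610.7 CPM, while *VIM* fell from 1073 to 818.1 CPM. The part of these shifts in the members' values was not tested. Endothelial markers summed to at most 2.15 CPM and blood cell markers to at most 3.37 CPM in any library.

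Protein 4.1 and ERM proteins share a FERM domain, a clover-shaped module that binds the cytoplasmic tails of membrane proteins and phosphoinositides. The products of *EPB41*, *EPB41L1*, *EPB41L2* and *EPB41L3* couple that module to the spectrin and actin meshwork under the membrane. Ezrin, radixin and moesin (the ERM proteins) instead bind actin filaments directly through their C-terminal tail. They switch between a folded, inactive form and a phosphorylated, open form. Merlin, the product of *NF2*, is a close relative of the ERM proteins that acts as a tumour suppressor upstream of the Hippo kinases. In the liver, radixin is the ERM protein known for holding the bile canaliculus of hepatocytes together with its transporters.

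*EPB41L3* encodes protein 4.1B, a membrane skeleton protein whose loss has been described in several carcinomas. The gene lies on the minus strand of chromosome 18 at 5392381 to 5630700 (hg38), and its canonical transcript has 23 exons. RefSeq places 4 transcription starts in it, and the table reports 1 count for the gene, so the starts could not be separated in these data. The windows from 250 bases before to 50 bases after a start (RefSeq, GRCh38.p14) of the 2 CpG-rich starts of *EPB41L3* are printed with that of *EPB41L4A*, because these are the 2 members that differed by more than 1.5-fold. All 3 are on the minus strand and are written 5′ to 3′, with each CG dinucleotide, searched as the letters CG (which read the same on both strands), in capitals.
EPB41L3, outermost start, chr18:5628942-5629241: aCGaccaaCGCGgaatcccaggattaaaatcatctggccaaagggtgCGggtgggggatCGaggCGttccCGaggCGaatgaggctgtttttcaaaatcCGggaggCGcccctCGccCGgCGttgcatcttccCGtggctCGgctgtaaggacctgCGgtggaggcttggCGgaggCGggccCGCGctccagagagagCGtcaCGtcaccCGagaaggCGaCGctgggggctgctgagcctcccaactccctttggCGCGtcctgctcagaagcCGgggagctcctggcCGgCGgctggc
EPB41L3, second start, chr18:5543948-5544247: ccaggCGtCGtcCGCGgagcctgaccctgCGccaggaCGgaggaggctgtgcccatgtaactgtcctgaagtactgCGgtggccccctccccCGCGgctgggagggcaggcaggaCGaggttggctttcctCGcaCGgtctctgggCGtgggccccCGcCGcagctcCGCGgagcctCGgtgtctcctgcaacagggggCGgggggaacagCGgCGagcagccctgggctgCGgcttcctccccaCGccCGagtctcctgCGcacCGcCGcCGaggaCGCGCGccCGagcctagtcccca
EPB41L4A, chr5:112419228-112419527: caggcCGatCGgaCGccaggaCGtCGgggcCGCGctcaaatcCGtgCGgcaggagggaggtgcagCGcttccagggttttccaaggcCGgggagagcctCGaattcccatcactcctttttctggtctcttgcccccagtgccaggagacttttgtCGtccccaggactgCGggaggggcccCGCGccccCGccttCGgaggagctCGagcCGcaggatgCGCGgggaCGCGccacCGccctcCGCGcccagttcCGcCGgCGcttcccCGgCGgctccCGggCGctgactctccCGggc
The outermost *EPB41L3* window held 30 CG dinucleotides, a number reached by 22.4% of the 35116 promoter windows of the same length. The next start held 32, reached by 18.9%, and the *EPB41L4A* window held 35, reached by 14.1%. The remaining *EPB41L3* starts, at chr18:5540375-5540674 and chr18:5521330-5521629, were poor in CG, with 4 and 2 against a median of 14 over all windows. The CG-richest window of each other member held 46 in *RDX*, 45 in *EPB41L1*, 40 in *EPB41L2* and 39 in *NF2*. It held 38 in *EPB41L5*, 36 in *EZR*, and 29 in both *EPB41* and *MSN*. CG-rich starts were thus not particular to the printed genes. Methylation and binding at these windows were not measured in these libraries.

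In the control libraries *EPB41L3* had 339 and 322 counts, or 5.56 and 5.16 CPM. In the libraries labelled sgUSP22 it had 0 and 0 counts. Allowing 3 counts in each of those libraries, about the one-sided 95% limit for a count of 0, gives 0.0461 CPM on average. At that limit the level was at least 116-fold lower than the control mean of 5.36 CPM ± 0.282 (SD, n = 2). That limit covers counting error only. None of the 50-base stretches of its canonical transcript occurred in an annotated transcript of another gene. Other transcripts of *EPB41L3* and unannotated sequence were not searched, so sharing of reads was not tested for the gene as a whole.

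**Figure D1:**
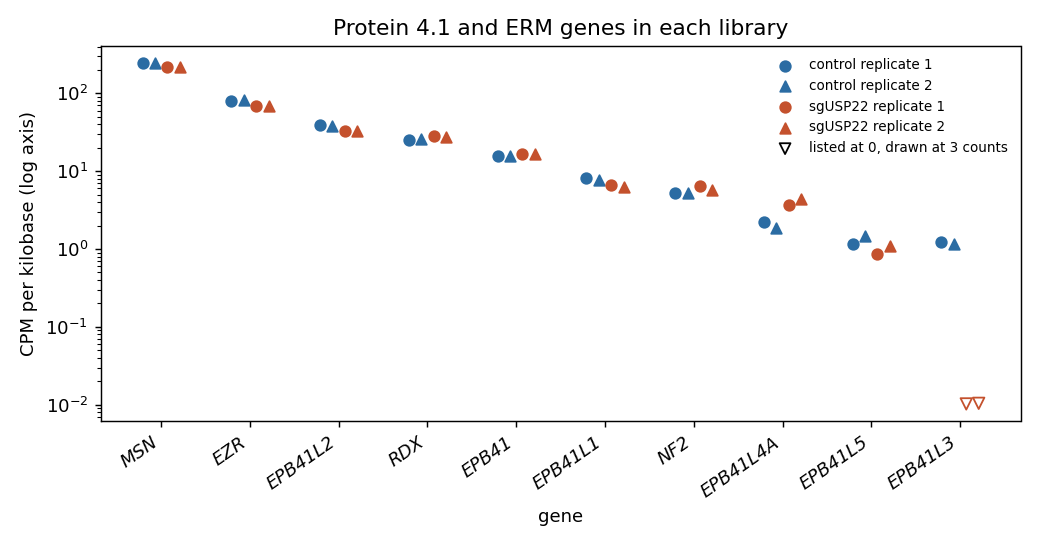
Level of each member in each library, in CPM per kilobase of transcript on a log axis, with 1 point per library, control in blue and sgUSP22 in red, and open triangles at 3 counts where a gene was listed at 0. *EPB41L3* averages 1.20 in control and has only open triangles under sgUSP22, while *EPB41L4A* goes from a mean of 2.03 to 4.0.

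The other gene with a difference beyond 1.5-fold was *EPB41L4A*, a shorter relative of protein 4.1 that has been described as a target of the Wnt and β-catenin pathway. It lies on the minus strand of chromosome 5 at 112142441 to 112419313. *EPB41L4A* counts were 625 and 545 in control and 1121 and 1313 in the libraries labelled sgUSP22. Its mean level went from 9.49 CPM ± 1.07 to 18.7 CPM ± 2.32 (SD, n = 2 each), a log2 difference of 0.98 (SE 0.12, 95% interval 0.71 to 1.25), or 1.97-fold. Both libraries under the guide stood above both control libraries.

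A second transcript occupies the same locus. *EPB41L4A-AS1*, a long noncoding RNA on the opposite strand that lies inside the span of *EPB41L4A*, was looked up after the values were seen. It had 2673 and 2701 counts in control and 1359 and 1446 in the libraries labelled sgUSP22 (log2 difference -1.02, SE 0.067, edgeR adjusted p = 1.75e-06). The antisense RNA was thus lower where *EPB41L4A* was higher. Whether the counting used strand is not given in the sources used here, so reads of a gene and of its antisense partner cannot be told apart where their exons overlap.

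The classical members of the family moved by much less. *EPB41*, which encodes the founding protein 4.1 of the red cell membrane, had 5811 and 5840 counts in control and 6662 and 6545 under the guide, a log2 difference of 0.10 (SE 0.039). *EPB41L2*, encoding the widely expressed protein 4.1G, had 10619 and 10560 counts in control and 9595 and 9254 under the guide, a log2 difference of -0.25 (SE 0.037). *EPB41L1*, encoding the neuronal protein 4.1N, had 3097 and 2999 counts in control and 2744 and 2540 in the libraries labelled sgUSP22, a log2 difference of -0.29 (SE 0.058). In all 3 genes the groups did not overlap, as in 75.9% of the 15150 tested genes. *EPB41* was on the higher side and *EPB41L1* and *EPB41L2* were on the lower side. The difference of *EPB41* was 0.0096 once counts were corrected for GC content and length of the transcript.

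*EPB41L5*, a FERM protein tied to epithelial polarity and to the epithelial-mesenchymal transition, had the widest spread between libraries among the members with counts in both groups. Its counts were 466 and 603 in control and 372 and 459 in the libraries labelled sgUSP22, or 7.64 and 9.67 CPM against 5.66 and 7.11 CPM. The lowest control library lay only slightly above the highest of the other group, and the log2 difference was -0.44 (SE 0.16, 95% interval -0.79 to -0.085). Leaving out 1 library at a time gave values from -0.61 to -0.26: without control replicate 1 it was -0.60 and without sgUSP22 replicate 2 it was -0.61, while without control replicate 2 it was -0.26 and without sgUSP22 replicate 1 it was -0.30.

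Among the ERM genes, *MSN* had the most counts. Moesin is the ERM protein best known from leukocytes and endothelium. *MSN* had 59084 and 60718 counts in control and 57263 and 55742 in the libraries labelled sgUSP22, a log2 difference of -0.16 (SE 0.029). *EZR*, encoding ezrin of epithelial microvilli, had 14782 and 15526 counts in control and 13650 and 13443 under the guide, a log2 difference of -0.24 (SE 0.035). *RDX* went the other way, with 6793 and 7065 counts in control and 8122 and 7810 under the guide, a log2 difference of 0.12 (SE 0.038). The sign of *RDX* depended on the processing, since it was -0.11 after correction for GC content and transcript length. *RDX* and *MSN* also share exact 50-base stretches with their processed pseudogenes, over 6.01% and 5.42% of their canonical transcripts, and *RDX* overlaps *ZC3H12C* in the annotation. That gene, looked up after the values were seen, had 1123 and 1084 counts in control and 2181 and 2284 under the guide (log2 difference 0.94, SE 0.076, edgeR adjusted p = 5.94e-06). The part of these shared stretches in the value of *RDX* was not tested.

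*NF2* had 1927 and 1966 counts in control and 2546 and 2227 in the libraries labelled sgUSP22. Its level was 31.56 CPM ± 0.0633 in control and 36.62 CPM ± 3.0 under the guide (SD, n = 2 each), a log2 difference of 0.21 (SE 0.071, 95% interval 0.056 to 0.37). The 2 control libraries were nearly equal, and the 2 under the guide lay apart but above them. Without sgUSP22 replicate 1 the log2 difference was 0.12, and without sgUSP22 replicate 2 it was 0.30.

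**Figure D2:**
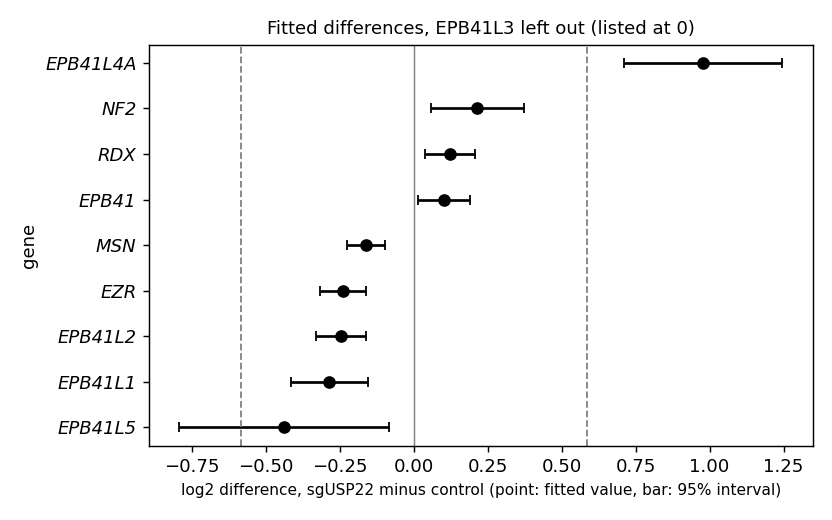
Log2 difference of each member, sgUSP22 minus control, from the fit over all 15150 tested genes, with bars for the 95% interval and dashed lines at 1.5-fold. *EPB41L3* is left out because it was listed at 0, *EPB41L4A* at 0.98 lies beyond the line, and the other 8 lie between -0.44 and 0.21.

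The threshold used for all genes, an adjusted p under 0.05 and a change of at least 1.5-fold, put 1 member on the higher side, *EPB41L4A*, and 1 on the lower side, *EPB41L3*, where 8.88% of the 15150 tested genes were called higher and 7.25% lower. The members were picked with this contrast in view, and the counts of 0 of *EPB41L3* were part of that choice, so these calls are no test of the members and nothing is read from them. The 2 groups did not overlap in 10 of 10 members (4 higher and 6 lower), but the same held for 75.9% of all tested genes, and 52.5% of tested genes passed the adjusted p at any fold. The median log2 difference was -0.20 over the members and 0.0009 over all tested genes.

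Levels were compared between genes as CPM per kilobase of canonical transcript. On that scale *MSN* was highest, at a mean of 245.2 in control and 219.1 in the libraries labelled sgUSP22, followed by *EZR* (80.5 and 68.2), *EPB41L2* (39.2 and 33.0) and *RDX* (25.6 and 27.9). *EPB41* came next at 15.7 and 16.8, then *EPB41L1* at 7.88 and 6.46 and *NF2* at 5.30 and 6.16. *EPB41L4A* stood at 2.03 and 4.0, *EPB41L5* at 1.32 and 0.974, and *EPB41L3* was lowest at 1.20 and 0. The order was the same in both groups. Neighbours in the order were separated by more than the range of their libraries except *EPB41L5* and *EPB41L3* in control and *EPB41L1* and *NF2* under the guide.

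The absence of *EPB41L3* counts raises the question whether a paralog took up the summed level of the family. The 6 protein 4.1 genes summed to 68.3 and 66.3 CPM per kilobase in control and 61.3 and 61.3 in the libraries labelled sgUSP22, a log2 difference of -0.14. The sum was lower in the libraries without *EPB41L3*, where *EPB41L2* alone went from a mean of 39.2 to 33.0. *EPB41L3* had made up only 1.83% and 1.75% of the sum in control. The sum therefore cannot show whether a paralog took up the level of *EPB41L3*. *EPB41L2* made up the largest share, at 58.3% in both control libraries and 54.4% and 53.4% under the guide, and *EPB41* took 23.2% and 23.4% in control and 27.4% and 27.5% under the guide. The share of *EPB41L4A* was 3.22% and 2.82% in control and 5.96% and 7.11% under the guide. Shares also depend on the sum, which was lower under the guide, and whether any paralog took up the level of *EPB41L3* was not tested. A comparison of 2 against 2 libraries cannot reach 0.05 in an exact permutation test, so the sums and shares carry no test.

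**Figure D3:**
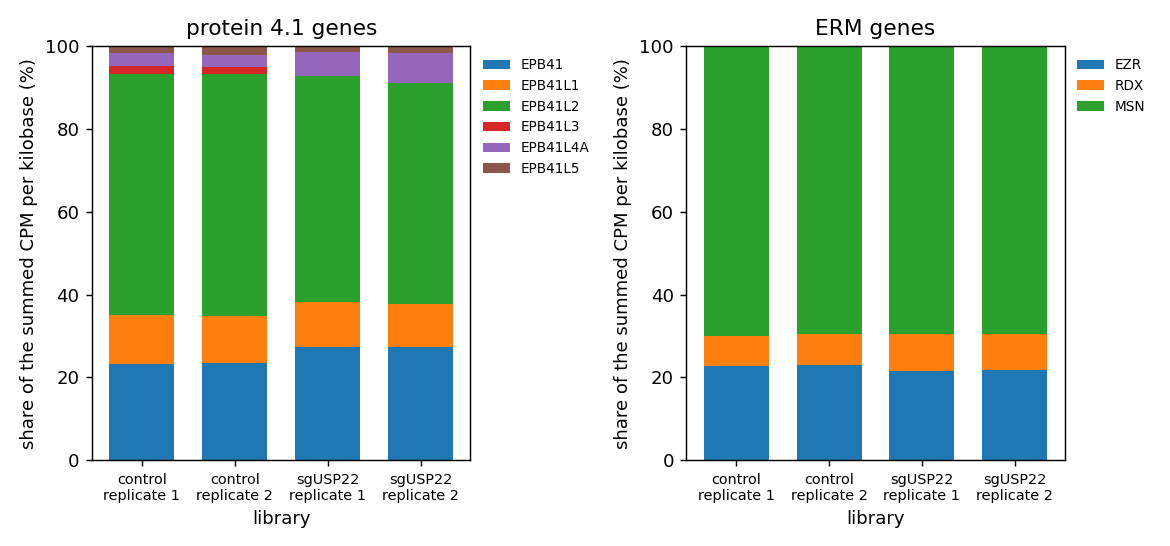
Share of each gene in the summed CPM per kilobase of its family (y axis, percent), with 1 stacked bar per library for the protein 4.1 genes and for the ERM genes. *EPB41L3* is 1.83% and 1.75% of the protein 4.1 sum in control and 0 in both libraries labelled sgUSP22, where *EPB41L4A* reaches 5.96% and 7.11%, and *MSN* stays between 69.5% and 70.0% of the ERM sum in all 4 libraries.

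By protein sequence *EPB41L4A* is not the nearest relative of *EPB41L3*. Local alignment of the products of the canonical transcripts gave 58.5% identity of protein 4.1B with the *EPB41* product over 731 residues, 55.9% with that of *EPB41L2* over 864 and 54% with that of *EPB41L1* over 857. The identity was 43.9% for *EPB41L5* and 39.4% for *EPB41L4A*. Of the 3 nearest paralogs, *EPB41* was 0.10 higher and *EPB41L1* and *EPB41L2* were 0.29 and 0.25 lower on the log2 scale in the libraries labelled sgUSP22, all under 1.5-fold.

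The ERM sum was 349.5 and 353.1 CPM per kilobase in control and 316.3 and 313.8 under the guide, a log2 difference of -0.16. Its makeup hardly moved. *MSN* held 70.0% and 69.6% in control and 69.6% and 69.5% under the guide, *EZR* 22.7% and 23.1% and then 21.5% and 21.7%, and *RDX* 7.26% and 7.30% and then 8.90% and 8.78%. The ERM proteins are closer to each other than the protein 4.1 genes are, with 81.8% identity between radixin and moesin, 76.7% between ezrin and radixin and 74.4% between ezrin and moesin, and merlin shares 46.2% to 47.9% with them.

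The tested genes on either side of *EPB41L3* show only whether the counts of 0 extended as far as those genes. Of the 10 nearest tested genes, 5 on each side, 9 had counts in both libraries labelled sgUSP22, 1 was called higher and 2 lower. Over all tested genes 8.88% were called higher and 7.25% lower. The span between the outermost of the 10 held 23 genes of the table besides *EPB41L3*. Of these, 12 were at 0 in all 4 libraries and could not show a loss. The nearest on the lower-coordinate side, *ZBTB14*, a zinc finger gene 95.3 kb away, had 1250 and 1234 counts in control and 1137 and 1212 under the guide (log2 difference -0.16, edgeR adjusted p = 0.146), and with the GC and length correction its difference was -0.31 (edgeR adjusted p = 0.0112), still under 1.5-fold. On the other side the nearest was *L3MBTL4*, a malignant brain tumour domain gene 324 kb away, with 41 and 90 counts in control and 21 and 12 under the guide (log2 difference -2.06, SE 0.51, edgeR adjusted p = 0.00681), and without control replicate 2 the value was -1.40 (edgeR adjusted p = 0.127). Both neighbours thus had reads where *EPB41L3* had none.

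Further out on the lower-coordinate side, the noncoding *LINC00667* (1861 and 2002 counts in control, 1667 and 1688 under the guide) passed the adjusted p at under 1.5-fold (log2 difference -0.28, edgeR adjusted p = 0.00638), and *LINC00526*, with 155 and 133 against 81 and 144 counts, did not (log2 difference -0.43, edgeR adjusted p = 0.242). *LINC00667* missed the adjusted p with the GC and length correction (log2 difference -0.17, edgeR adjusted p = 0.0608). The value of *LINC00526* depended on 1 library, being -0.92 without sgUSP22 replicate 2 (edgeR adjusted p = 0.032) and -0.079 without sgUSP22 replicate 1. *DLGAP1-AS1* rose, from 194 and 211 to 360 and 469 counts (log2 difference 0.96, SE 0.17, edgeR adjusted p = 0.00106), and *DLGAP1-AS2* beside it had 169 and 178 against 203 and 245 counts (edgeR adjusted p = 0.213). These 2 antisense genes lie 1794 and 1782 kb from *EPB41L3*.

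Beyond *L3MBTL4* on the other side, the noncoding *LINC00668* fell from 33 and 21 counts to 0 and 4 (log2 difference -3.75, SE 0.97, edgeR adjusted p = 0.00842), a gene with few reads. Its log2 difference was -7.80 without sgUSP22 replicate 2 and -2.80 without sgUSP22 replicate 1, and its edgeR adjusted p was 0.0573 without control replicate 1 and 0.0581 with no filter on low counts. *LAMA1*, the laminin α1 chain of basement membranes, was lower by under 1.5-fold, with 3787 and 3725 against 2840 and 2793 counts (log2 difference -0.49, edgeR adjusted p = 2.62e-05), and reached -0.59, just past 1.5-fold, with the GC and length correction. *ARHGAP28* had 822 and 666 against 695 and 708 counts (edgeR adjusted p = 0.298), and its log2 difference of -0.16 became 0.012 without control replicate 1 and -0.41 (edgeR adjusted p = 0.0197) with the GC and length correction. *PTPRM*, a receptor phosphatase 1936 kb away, had 16212 and 15881 against 18234 and 18286 counts (log2 difference 0.11, edgeR adjusted p = 0.0318). It missed the adjusted p by edgeR without control replicate 2 (0.18), without sgUSP22 replicate 1 (0.0783), without sgUSP22 replicate 2 (0.139), with the GC and length correction (0.1) and with no filter on low counts (0.0607). The median log2 difference of the 10 neighbours was -0.22.

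**Figure D4:**
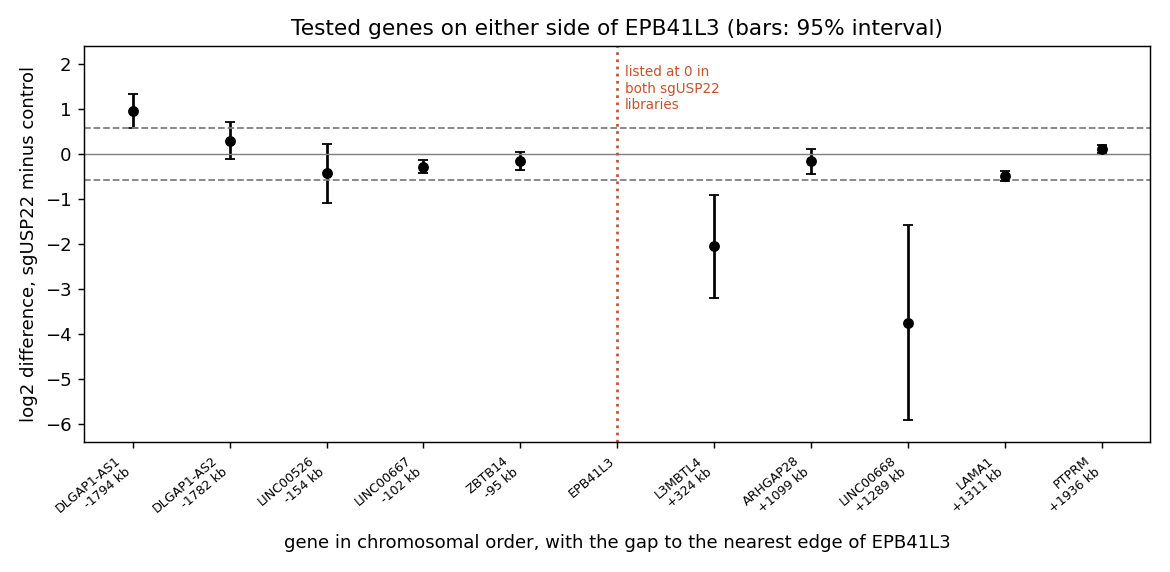
Log2 difference, sgUSP22 minus control, of the 10 nearest tested genes around *EPB41L3* in chromosomal order, with the gap to it in kb, bars for the 95% interval and dashed lines at 1.5-fold. *DLGAP1-AS1* lies above the upper line and *L3MBTL4* and *LINC00668* lie below the lower one, while *ZBTB14*, the nearest gene, is at -0.16 (-0.31 with the GC and length correction, which is not drawn).

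Counts of 0 in both libraries labelled sgUSP22 with reads in both controls were found for 196 genes, but only 2 of them had at least 100 counts in each control library. These were *EPB41L3* and *ADAM19*, a membrane-anchored metalloprotease, with 131 and 151 counts in control. Taking the genes at 0 in both libraries labelled sgUSP22 in order of mean control CPM, the 5 most like *EPB41L3* were *STIMATE*, *HSPE1-MOB4*, *ADAM19*, *PASD1* and *TNXA*. *PASD1* had 104 and 94 control counts. *STIMATE* (1284 and 0), *HSPE1-MOB4* (0 and 790) and *TNXA* (161 and 0) had reads in only 1 control library, so their pattern was not shared by the control replicates. In the opposite direction, 1 gene had at least 100 counts in both libraries labelled sgUSP22 and 0 in both controls.

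The partners of these linkers were taken from 6 lists drawn up with earlier results of these data known, 170 genes in all, of which 165 were in the table and 136 were tested. By edgeR, 11 were called higher and 16 lower, and the median log2 difference was 0.018. The shares of all tested genes called were those given above, 8.88% and 7.25%. At any fold, 42 were higher and 41 lower at an adjusted p under 0.05. With the GC and length correction 5 were called higher, since *JAK2* (0.52), *PTPN3* (0.52), *PTPN4* (0.24), *MOB1B* (0.34) and *TAOK1* (0.31) then came under 1.5-fold on the log2 scale and *LRRK2* missed the adjusted p, and *TPM1* (-0.49) came under 1.5-fold among the lower genes. Without sgUSP22 replicate 2, *PTPN4* (0.58), *TAOK1* (0.58) and *PAK1* (-0.58) lay just under 1.5-fold.

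The other FERM domain genes had 5 called higher and 9 lower of 35 tested (median -0.098). *MYO10*, the myosin that carries cargo to filopodial tips, fell from 29887 and 31827 counts to 17325 and 16749 (log2 difference -0.94, SE 0.035, edgeR adjusted p = 5.47e-08), from 500.2 to 261.6 CPM. *MYO7B*, a brush border myosin, fell from 119 and 118 to 24 and 25 counts (log2 difference -2.35, edgeR adjusted p = 0.000128), and *PLEKHH2* fell from 166 and 182 to 79 and 49 (log2 difference -1.52, edgeR adjusted p = 0.000956). Of the genes that rose, *JAK2*, a cytokine receptor kinase, went from 930 and 881 to 1592 and 1811 counts (log2 difference 0.83, edgeR adjusted p = 6.22e-05). *FRMD4B*, a scaffold of cell junctions, rose from 284 and 270 to 583 and 449 counts (log2 difference 0.82, edgeR adjusted p = 0.00134). The FERM phosphatases *PTPN3* and *PTPN4* both rose, by 0.65 (edgeR adjusted p = 0.000113) and 0.63 (edgeR adjusted p = 8.26e-05) on the log2 scale. *FRMD4A* had 59 and 50 counts in control and 27 and 29 under the guide (log2 difference -1.04, edgeR adjusted p = 0.0454), and DESeq2 gave an adjusted p of 0.186 for it. Its edgeR adjusted p was 0.0871 to 0.213 when any 1 library was left out.

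The membrane skeleton that protein 4.1 binds had 0 called higher and 3 lower of 18 tested (median 0.035). *ANK1* fell from 100 and 92 to 36 and 22 counts (log2 difference -1.80, SE 0.35, edgeR adjusted p = 0.0017). *ANK2* fell from 1415 and 1383 to 903 and 953 counts (log2 difference -0.67, edgeR adjusted p = 0.000122). Both are ankyrins, which tie spectrin to membrane proteins, and the third gene, *TPM1*, encodes a tropomyosin of actin filaments and fell from 6751 and 6867 to 4741 and 4655 counts (log2 difference -0.61, edgeR adjusted p = 1.52e-06).

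Of the membrane proteins and other partners that bind protein 4.1, 1 was called higher and 0 lower of 20 tested (median 0.036). That gene was *ITGB8*, an integrin subunit that binds latent TGF-β, which rose from 359 and 398 to 1532 and 1473 counts (log2 difference 1.91, SE 0.096, edgeR adjusted p = 3.32e-07). The adhesion genes *CADM1*, *CADM3* and *CNTNAP2* and the glutamate receptor gene *GRIA1*, also on this list, were at 0 in all 4 libraries.

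Among the membrane anchors and scaffolds of ERM proteins, 1 was called higher and 1 lower of 18 tested (median 0.016). *MUC1*, a transmembrane mucin, rose from 334 and 334 to 1298 and 1346 counts (log2 difference 1.91, SE 0.099, edgeR adjusted p = 4.25e-07). *ICAM1*, an adhesion receptor for leukocytes, fell from 83 and 73 to 20 and 14 counts (log2 difference -2.27, SE 0.39, edgeR adjusted p = 0.000829).

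The kinases and phosphatases that act on ERM proteins had 1 called higher and 1 lower of 20 tested (median -0.075). *STK10*, a kinase that phosphorylates the ERM C-terminus, fell from 4577 and 4826 to 3053 and 3106 counts (log2 difference -0.69, SE 0.048, edgeR adjusted p = 2.32e-06). *LRRK2*, a large kinase, had 12 and 20 counts in control and 41 and 53 under the guide (log2 difference 1.47, SE 0.48, edgeR adjusted p = 0.0265), and DESeq2 gave an adjusted p of 0.101. Without sgUSP22 replicate 2 its edgeR adjusted p was 0.173, without control replicate 1 it was 0.13 and without sgUSP22 replicate 1 it was 0.0598.

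The merlin and Hippo relay had 3 called higher and 3 lower of 28 tested (median 0.076). *TAOK1* and *TAOK2*, kinases that activate the Hippo kinases, both rose, from 7548 and 7829 to 12252 and 12635 counts (log2 difference 0.62, edgeR adjusted p = 1.41e-06) and from 743 and 639 to 1506 and 1452 counts (log2 difference 1.02, edgeR adjusted p = 2.42e-05). *MOB1B*, a cofactor of the LATS kinases, rose from 1513 and 1498 to 2418 and 2736 counts (log2 difference 0.70, edgeR adjusted p = 5.38e-05). *AMOTL2*, an angiomotin that binds merlin and YAP, fell from 17896 and 18333 to 8047 and 8322 counts (log2 difference -1.22, SE 0.039, edgeR adjusted p = 1.93e-08). *FRMD6*, a FERM protein placed upstream of Hippo, fell from 2958 and 3169 to 1950 and 1934 counts (log2 difference -0.74, edgeR adjusted p = 4.38e-06). *PAK1*, a kinase that phosphorylates merlin, fell from 2108 and 2112 to 1504 and 1307 counts (log2 difference -0.67, edgeR adjusted p = 7.08e-05).

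**Figure D5:**
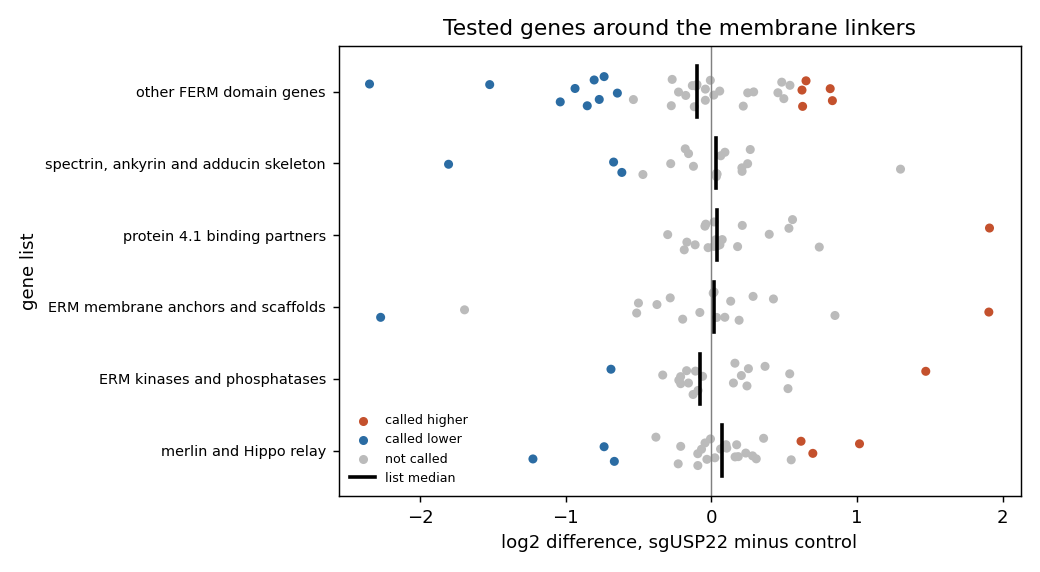
Log2 difference, sgUSP22 minus control, of every tested gene in each of the 6 partner lists (1 point per gene), with genes called higher in red, called lower in blue and not called in grey, and the list medians as black bars. The list medians lie between -0.098 and 0.076, and the called genes farthest from 0 are *ITGB8* and *MUC1* at 1.91 and *MYO7B* and *ICAM1* at -2.35 and -2.27.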

How the data were processed

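Polyadenylated RNA was sequenced on a DNBSEQ-G400 instrument. The authors aligned reads to hg38 with HISAT2 2.2.1 and assigned them to genes with StringTie 2.2.1, and they deposited the values as whole-number counts per gene that were not normalized. DESeq2 1.34.0 is also named in their notes. The gene annotation and strand setting are not given in the sources used here.

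Counts were fitted with edgeR 4.0.16 (R 4.3.3), using TMM factors, filterByExpr with a minimum count of 10 and the quasi-likelihood test, with Benjamini-Hochberg adjustment over 15150 tested genes. A gene was called at an adjusted p under 0.05 and a fold change of at least 1.5. CPM values use TMM library sizes. Intervals are 95% and two-sided, while the limit at 3 counts is one-sided. Alternatives were DESeq2 1.42.0, other scaling, filters and thresholds, a GC and length correction, a replicate block and leaving out each library. Code was tested on simulated data.

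Positions, transcript lengths and exons come from GENCODE v44, which matched 25763 of 28278 symbols. The members and lists were chosen with earlier results of these data known. Named were all members, up to 4 called genes per list and direction with the largest change, 5 tested neighbours per side of *EPB41L3*, the 5 genes most like it and *USP22*. Apart from cell type markers, genes outside this rule are marked where named.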

Additional observations from a re-analysis of the deposited data

How the results depend on the processing

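Replicate numbers were not taken to pair the libraries, since same-numbered libraries hardly deviated together (correlation 0.0369 over 15150 genes). With the replicate number as a block 1341 genes were called higher and 1100 lower, against 1345 and 1098 without it. A test against 1.5-fold called 578 higher and 428 lower, and without a fold threshold 4057 and 3904 were past the adjusted p. Leaving out 1 library gave 1158 to 1400 higher and 995 to 1139 lower. Of the members, 3 were higher and 6 lower without a fold threshold, where 52.5% of all tested genes passed the adjusted p. Among these, *EPB41L5* and *NF2* missed the adjusted p by DESeq2 and with no filter on low counts. With the fold threshold, 2 members were lower after the GC and length correction, the second being *EPB41L5*. With 1 library left out, 1 member was higher each time and 1 to 2 were lower, the 2 arising without control replicate 1 and without sgUSP22 replicate 2. The partner genes called were 3 higher and 8 lower in the test against 1.5-fold, 42 and 41 without a fold threshold, 5 higher after the GC and length correction, and 7 to 13 higher and 14 to 15 lower with 1 library left out, the 7 without sgUSP22 replicate 2. The summed protein 4.1 level differed by -0.16 to -0.11 (log2) and the ERM sum by -0.16 to -0.15. These ranges cover only counts without division by length and 1 library left out, since no other setting was run for the sums. *RDX* reversed to -0.11 with the GC and length correction and *ARHGAP28* to 0.012 without control replicate 1 (-0.32 to 0.012 with 1 library left out, -0.41 with the GC and length correction). The causes were not tested. *EPB41L4A* stayed called in every setting run, at 0.85 to 1.10. A group of 2 libraries limits all of these values, and where *EPB41L3* has no reads only the limit at 3 counts can be given.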

Other observations

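Reads listed in 1 library of a group and at 0 in the other were not limited to the genes resembling *EPB41L3*. In all, 9 genes had at least 300 counts in 1 library of a group and 0 in its partner, among them *STIMATE* and *HSPE1-MOB4*. *EPB41L3* was at 0 in both libraries labelled sgUSP22 and at 322 or more in both control libraries, but its counts of 0 were part of the choice of the members. Whether its counts of 0 arose in the same way as those of the 9 genes was not tested.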
